A study of Mus musculus with 15 samples.

Results

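Tumor necrosis factor (TNF), its 2 receptors and 7 partners of their signaling were followed by RNA-seq in mouse cerebellar cultures with and without IL-12. The 10 genes were chosen by symbol as the ligand (*Tnf*), the receptors (*Tnfrsf1a* and *Tnfrsf1b*), proteins that bind or act at the receptors (*Ripk1*, *Traf1*, *Traf2*, *Birc2* and *Birc3*) and TNF-induced genes (*Tnfaip2* and *Tnfaip3*), out of 35142 genes with values. All 10 were among the 15360 genes that passed the filter on low counts. The cultures, grown in Neurobasal Plus with B27 Plus and GlutaMax, came from the dissociated cerebellum of newborn C57BL/6 wt mice (P0 to P4). At day 14 in vitro, 5 cultures received 30 ng/ml recombinant murine IL-12p70 and 5 received 100 ng/ml for 18 h, and 5 cultures were left unstimulated. IL-12p70 is the active heterodimer of the cytokine. The labels do not say whether the 5 cultures of a group came from separate animals or preparations, so every p-value measures the spread between these cultures, which may be technical.

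TNF is made as a membrane protein and is released by proteolytic shedding. It binds TNFR1 (encoded by *Tnfrsf1a*), which most cells carry and which has a death domain, and TNFR2 (*Tnfrsf1b*), which is found mainly on myeloid, endothelial and other selected cells and lacks one. Ligand-bound TNFR1 gathers RIPK1, TRAF2 and the ubiquitin ligases cIAP1 (*Birc2*) and cIAP2 (*Birc3*), and the ubiquitin chains they build lead to NF-κB, which in turn induces genes that include *Tnf*, *Birc3*, *Traf1* and *Tnfaip3* itself. In the brain, microglia are the best-known source of TNF.

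The labels call the cells neurons, but the cultures held RNA of several cell types. On the TPM scale, which corrects for transcript length, the 15 neuronal markers ranged over all cultures from *Pcp2* of Purkinje cells (0 to 0.115) to *Map2* (65.5 to 100.4), with *Zic1* at 63.2 to 93.7, *Tubb3* at 43.3 to 84.2 and *Rbfox3* at 1.39 to 4.73. The 14 microglial markers with values ranged from *P2ry12* (19.5 to 31.3) to *C1qa* (1581 to 2896), and the 11 astrocyte markers from *Gjb6* (0.337 to 1.53) to *Gfap* (2142 to 3098). The myelin gene *Mbp* was at 3485 to 5845. All 14 microglial markers were detected in every culture. Of 6 endothelial markers, *Cldn5* was at 0 in every culture and the other 5 were detected in all, up to 21.5 TPM for *Flt1*. Of 6 markers of T and NK cells, *Ncr1* was at 0 in every culture, *Cd3e* at or below 0.0730, and *Cd4*, which microglia can also express, at 1.71 to 5.79. Each value below is therefore that of a whole culture, in which fewer cells of a type and less RNA per cell cannot be told apart. Between 25746096 and 38435850 reads were assigned per culture.

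Of the 10 genes, *Tnfrsf1a* had the highest level in unstimulated cultures, at 129 ± 13.1 TPM (SD, n = 5), followed by *Traf1* at 77.5 ± 3.16 and *Tnfrsf1b* at 49.6 ± 4.51. *Ripk1* (22.6 ± 1.81) and *Birc2* (20.2 ± 1.97) overlapped each other, and *Traf2* lay below both at 15.7 ± 0.464. *Tnf* (10.6 ± 0.825), *Tnfaip3* (10.3 ± 0.981) and *Tnfaip2* (9.80 ± 0.690) could not be ordered beyond the spread between cultures, and *Birc3* was the lowest at 8.02 ± 0.721 TPM. With 100 ng/ml IL-12, *Tnfaip2* moved from rank 9 to rank 6, at 19.8 ± 2.14 TPM, and then overlapped *Birc2* above it and *Traf2* below it.

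Promoter windows of 300 bases, 250 before and 50 after the annotated start, are shown for the ligand, both receptors and both TNF-induced genes, because these 5 genes include the 2 largest rises and both falls described below. They come from RefSeq on GRCm38.p6, whereas gene positions are given on GRCm39. They lie at chr17:35201958-35202257 (minus strand) for *Tnf*, chr6:125349473-125349772 (plus strand) for *Tnfrsf1a*, chr4:145246821-145247120 (minus strand) for *Tnfrsf1b*, chr12:111442411-111442710 (plus strand) for *Tnfaip2* and chr10:19015361-19015660 (minus strand) for *Tnfaip3*. Capitals mark matches, on either strand, to the NF-κB consensus, to the STAT motif TTCNNNGAA (the kind of site that STAT4, the main transducer of IL-12, binds) or to the AP-1 motif TGANTCA.
Tnf: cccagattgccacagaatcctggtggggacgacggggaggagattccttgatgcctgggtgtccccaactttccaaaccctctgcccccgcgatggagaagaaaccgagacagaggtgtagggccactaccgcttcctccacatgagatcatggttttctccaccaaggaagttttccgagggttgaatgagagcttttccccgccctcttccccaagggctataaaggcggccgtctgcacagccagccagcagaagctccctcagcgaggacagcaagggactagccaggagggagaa
Tnfrsf1a: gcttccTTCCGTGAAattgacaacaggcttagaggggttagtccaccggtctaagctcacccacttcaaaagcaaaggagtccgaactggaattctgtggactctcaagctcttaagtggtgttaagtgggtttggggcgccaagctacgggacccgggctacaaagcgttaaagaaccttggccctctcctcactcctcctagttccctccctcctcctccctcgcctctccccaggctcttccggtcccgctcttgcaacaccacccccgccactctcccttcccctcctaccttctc
Tnfrsf1b: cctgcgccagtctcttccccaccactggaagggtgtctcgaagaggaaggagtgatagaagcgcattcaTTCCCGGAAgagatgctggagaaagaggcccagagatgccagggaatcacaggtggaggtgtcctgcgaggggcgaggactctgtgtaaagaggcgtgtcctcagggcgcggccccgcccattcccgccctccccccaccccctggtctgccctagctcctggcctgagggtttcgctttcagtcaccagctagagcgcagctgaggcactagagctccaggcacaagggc
Tnfaip2: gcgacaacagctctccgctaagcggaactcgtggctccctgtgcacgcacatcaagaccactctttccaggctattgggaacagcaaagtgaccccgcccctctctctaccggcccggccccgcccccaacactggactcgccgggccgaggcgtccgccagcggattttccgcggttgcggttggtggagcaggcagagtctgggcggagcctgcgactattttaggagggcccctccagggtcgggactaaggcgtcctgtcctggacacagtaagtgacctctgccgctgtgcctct
Tnfaip3: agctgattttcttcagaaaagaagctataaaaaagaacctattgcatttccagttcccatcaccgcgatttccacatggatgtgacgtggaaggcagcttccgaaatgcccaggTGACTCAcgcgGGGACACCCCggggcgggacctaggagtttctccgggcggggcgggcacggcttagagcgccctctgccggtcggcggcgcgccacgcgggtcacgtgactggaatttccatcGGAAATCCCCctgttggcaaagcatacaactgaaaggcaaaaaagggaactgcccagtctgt
The window of *Tnfaip3* shown here held 2 matches to the NF-κB consensus, GGGACACCCC starting 125 bases and GGAAATCCCC starting 12 bases before the start. It also held 1 AP-1 match (TGACTCA) starting 136 bases before the start. These matches did not overlap each other. Another window of *Tnfaip3*, at chr10:19011914-19012213, held none of the 3 motifs. *Tnfrsf1a* held the STAT match TTCCGTGAA starting 244 bases before the start, and *Tnfrsf1b* held TTCCCGGAA starting 181 bases before it. The windows of *Tnf* and *Tnfaip2* held none of the 3 motifs, which says only that these letters are absent from these windows. All 10 genes had a window in the table, 3 of them more than 1, so that 13 windows were searched. A match to the NF-κB consensus was found in 1 of the 10 genes, a STAT match in 3 (*Ripk1* being the other) and an AP-1 match in 1. Of all 27025 genes in the table, 5.14%, 9.55% and 8.97% had a window with these motifs, and of all 32851 windows 4.51%, 8.30% and 7.81% held them.

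Levels in single cultures are given as CPM, the reads of a gene relative to the total of its library, scaled with TMM factors. Where all cultures of a group are said to lie above or below those of another, the share of all genes that do so was not counted. A gene was called when its Benjamini-Hochberg false discovery rate (FDR) over 15360 genes was under 0.05 in edgeR's quasi-likelihood test. At 100 ng/ml, 4 of the 10 genes were higher than in unstimulated cultures (*Tnf*, *Tnfaip2*, *Tnfrsf1a* and *Birc3*) and 0 were lower. Of all genes tested, 9.77% were called in that comparison, 5.83% higher and 3.93% lower. These shares depended on 1 culture: without 100 ng/ml replicate 2, 2932 of 15328 genes were called, in place of 1500 of 15360. At 30 ng/ml, 2 were higher (*Tnfaip2* and *Tnfrsf1a*) and 2 lower (*Tnfrsf1b* and *Tnfaip3*), against 7.87% of all genes called, 4.16% higher and 3.71% lower. Both comparisons share the unstimulated cultures. The 10 genes were chosen with earlier results of these data known, so these counts are not independent evidence of a direction. The direct comparison of 100 with 30 ng/ml called *Tnf* and *Tnfaip2*, both higher at 100 ng/ml, where 0.579% of all genes were called, 0.501% higher and 0.0781% lower. The median log2 fold change of the 10 genes was 0.08, 0.09 and 0.13 in the 3 comparisons, beside 0.00 over all genes tested in each. The count at 30 ng/ml depended on single cultures: without unstimulated replicate 3 it was 1, and without unstimulated replicate 1 or 30 ng/ml replicate 2, 3 or 4 it was 2. The count between the IL-12 groups was 1 without 30 ng/ml replicate 5. The number of all genes called moved too. At 30 ng/ml it was 673 without unstimulated replicate 3 and 968 without unstimulated replicate 1, in place of 1209. Without 30 ng/ml replicate 2, 3 or 4 it was 1018, 1033 and 940. Between the IL-12 groups it was 38 without 30 ng/ml replicate 5, in place of 89.

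**Figure D1:**
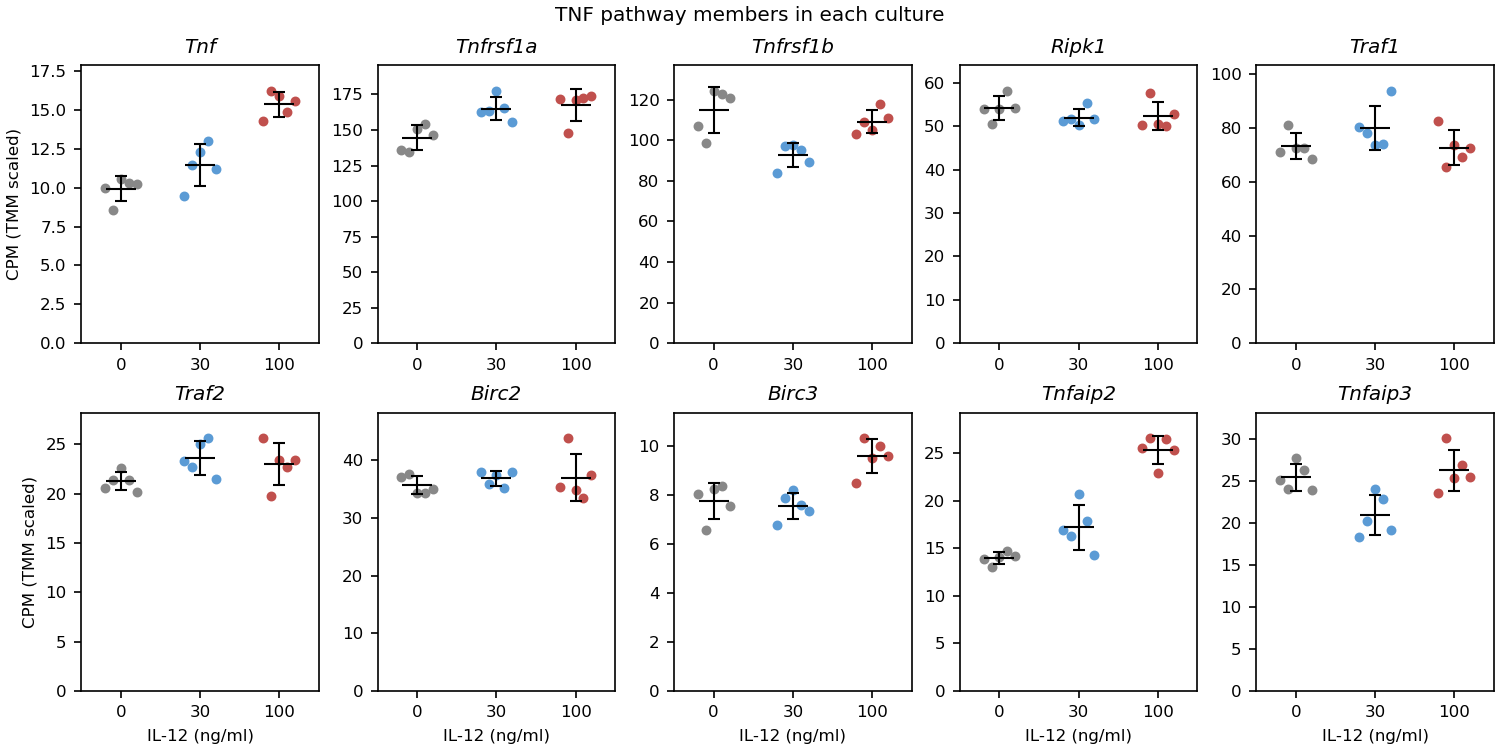
Levels of the 10 genes in each culture, as CPM scaled with TMM factors (y axes, each from 0), against the IL-12 concentration in ng/ml (x axis, 5 cultures per concentration). Points are cultures, and bars give the mean and SD. In *Tnf*, *Tnfaip2* and *Birc3* all 5 cultures with 100 ng/ml lie above all unstimulated cultures, and in *Tnfrsf1b* all 5 cultures with 30 ng/ml lie below them. How many of all genes separate in this way was not counted.

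*Tnf* (ENSMUSG00000024401, GRCm39 chr17:35418357-35420983, minus strand) encodes the ligand. Unstimulated cultures 1 to 5 held 9.98, 8.57, 10.6, 10.3 and 10.2 CPM. Cultures with 30 ng/ml held 9.44, 11.4, 12.3, 13.0 and 11.2 CPM. Those with 100 ng/ml held 14.3, 16.2, 15.9, 14.8 and 15.6 CPM. Every culture with 100 ng/ml was above every other culture, while the 30 ng/ml cultures reached from within the unstimulated range to above it. The rise at 100 ng/ml was 1.55-fold (log2 fold change 0.63, SE 0.08, FDR = 0.000104), and it was called in 24 of 24 alternative fits. At 30 ng/ml the log2 fold change was 0.21 (95% confidence interval 0.04 to 0.38, FDR = 0.123), which became a call only without 30 ng/ml replicate 1 (FDR = 0.0384), the lowest culture of its group. The 2 concentrations differed by 0.42 on the log2 scale (SE 0.08, FDR = 0.0155), and this call was lost without 30 ng/ml replicate 5 (FDR = 0.0576) and with limma on log2(TPM + 0.1) (FDR = 0.0633). These values rest on 239 to 534 reads per culture. A single transcript, *Tnf-201* of 1639 bases, held 100% of the gene's TPM in every culture. The neighbours of *Tnf* in the same locus encode lymphotoxins: *Lta* had 0 to 2 reads per culture, and *Ltb* had 0.215 to 0.402 CPM in unstimulated cultures, 0.275 to 0.348 with 30 ng/ml and 0.407 to 0.673 with 100 ng/ml. At 6 to 20 reads per culture *Ltb* did not pass the filter on low counts and was not tested.

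The microglial markers gave another measure beside these values. Their summed level was 8963 to 12653 TPM in unstimulated cultures, 7149 to 8935 TPM with 30 ng/ml and 8540 to 11230 TPM with 100 ng/ml. The sum was thus below every unstimulated culture in all 5 cultures with 30 ng/ml, by 0.40 on the log2 scale (two-sided exact permutation p = 0.00794, the smallest that 5 against 5 cultures allow, adjusted p = 0.0667 over 21 tests). At 100 ng/ml the groups overlapped (log2 difference -0.14, exact permutation p = 0.206, adjusted p = 0.289). Gene by gene, 9 of the 14 tested markers fell at 30 ng/ml (median log2 fold change -0.42) and 0 at 100 ng/ml (median -0.12). Of all genes tested, 3.71% fell at 30 ng/ml and 3.93% at 100 ng/ml. Set against this sum, per 1000 TPM of microglial markers, *Tnf* was at 0.988 ± 0.105 TPM in unstimulated cultures, 1.53 ± 0.0787 with 30 ng/ml and 1.68 ± 0.239 with 100 ng/ml (SD, n = 5), and neither IL-12 group overlapped the unstimulated one. Among the 10 genes this also held for *Tnfaip2* and *Tnfrsf1a* (12.0 ± 1.02, 18.1 ± 2.00 and 14.7 ± 1.56) at both concentrations and for *Traf2* (1.47 ± 0.215, 2.22 ± 0.166 and 1.74 ± 0.218) at 30 ng/ml, where the divisor was itself lower. The other 6 genes overlapped the unstimulated cultures in this ratio at both concentrations. This ratio was chosen after the values were seen and was given no test, and how many of all genes separate in it was not counted. A gene of unchanged level also rises in this ratio where the divisor is lower. With 100 ng/ml, *Tnf* was above the unstimulated range in all 5 cultures, and the microglial sum overlapped that of unstimulated cultures. The part of microglia in the rise of *Tnf* was not tested.

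**Figure D2:**
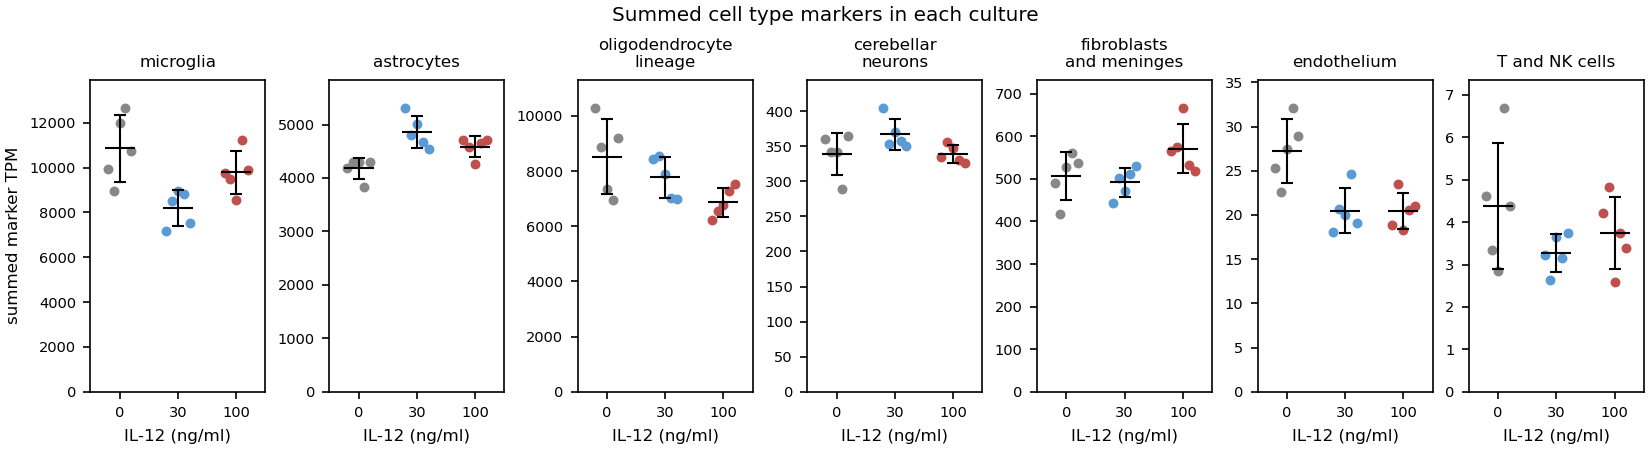
Summed TPM of the markers of 7 cell types (y axes, each from 0) in each culture, against the IL-12 concentration in ng/ml. Points are cultures, and bars give the mean and SD of 5. The microglial sum is lowest with 30 ng/ml, where all 5 cultures (7149 to 8935 TPM) lie below the unstimulated ones (8963 to 12653 TPM), and the sums of endothelium and of T and NK cells do not exceed 32.1 and 6.69 TPM in any culture.

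The other marker sums, compared by the same exact permutation test, did not pass the threshold either. A full separation of 2 groups had an adjusted p of 0.0667, so the test could not call it here. Astrocyte markers summed to 3839 to 4298 TPM in unstimulated cultures, 4550 to 5308 with 30 ng/ml and 4262 to 4718 with 100 ng/ml (adjusted p = 0.0667 and 0.0833 against unstimulated). All 5 cultures with 30 ng/ml were thus above all unstimulated ones (exact permutation p = 0.00794, the smallest possible). The oligodendrocyte sum was 6947 to 10282, 6974 to 8544 and 6220 to 7537 TPM in the same order (adjusted p = 0.431 and 0.0926), and the neuronal sum 288 to 364, 350 to 404 and 325 to 356 TPM (adjusted p = 0.222 and 0.992). Markers of fibroblasts and meninges summed to 418 to 560, 443 to 531 and 518 to 666 TPM (adjusted p = 0.737 and 0.222). Those of endothelium reached 22.6 to 32.1, 18.1 to 24.7 and 18.3 to 23.4 TPM (adjusted p = 0.0667 for both), and those of T and NK cells 2.84 to 6.69, 2.63 to 3.75 and 2.58 to 4.82 TPM (adjusted p = 0.238 and 0.593). Gene by gene, 4 of 11 astrocyte markers rose at 30 ng/ml, and 2 rose and 1 fell at 100 ng/ml. Of 12 oligodendrocyte markers 1 fell at 30 ng/ml and 3 at 100 ng/ml, and of 6 fibroblast and meningeal markers 2 rose at 100 ng/ml. Among 14 tested neuronal markers 2 rose and 2 fell at 30 ng/ml, and 1 rose and 1 fell at 100 ng/ml. Their log2 fold changes had a median of -0.42 with 30 and of -0.19 with 100 ng/ml, whereas their sum, to which *Map2*, *Tubb3* and *Zic1* contributed most, differed by 0.12 and 0.00. Of 4 tested endothelial markers 1 fell at each concentration, and the 1 tested marker of T and NK cells was not called. Beside these counts, 4.16% of all genes tested rose and 3.71% fell at 30 ng/ml, and 5.83% rose and 3.93% fell at 100 ng/ml. The part of these cell types in the results on the 10 genes was not tested. Without 100 ng/ml replicate 3, the difference in astrocyte markers at 100 ng/ml (0.16 on the log2 scale) and that in microglial markers between the concentrations (0.31) would each have had an adjusted p of 0.0417.

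The receptors went different ways. *Tnfrsf1a* (chr6:125325566-125339632, plus strand), which encodes the death-domain receptor TNFR1, held 136, 135, 151, 154 and 147 CPM in unstimulated cultures 1 to 5. It held 163, 163, 178, 166 and 156 CPM with 30 ng/ml, and 172, 148, 171, 173 and 174 CPM with 100 ng/ml. All cultures with 30 ng/ml were above all unstimulated ones, as were 4 of 5 with 100 ng/ml, where replicate 2 fell among the unstimulated cultures. It rose 1.14-fold at 30 ng/ml (log2 0.19, SE 0.05, FDR = 0.0338) and 1.16-fold at 100 ng/ml (log2 0.21, SE 0.05, FDR = 0.0178). Between the concentrations the difference was 0.02 (95% interval -0.09 to 0.13, FDR = 0.909). Both calls were marginal. That at 30 ng/ml was lost in 10 of 24 alternatives, 8 of them without a single culture (unstimulated replicate 1, 2, 3 or 5, or 30 ng/ml replicate 1, 2, 3 or 4, with FDR from 0.0506 to 0.0842), and that at 100 ng/ml was lost without unstimulated replicate 1 (FDR = 0.0525) and on the TPM scale (log2 0.15, FDR = 0.228). Its main coding transcript, *Tnfrsf1a-201* (2156 bases), was at 107 ± 4.19 TPM in unstimulated cultures, 126 ± 5.24 with 30 ng/ml and 125 ± 4.62 with 100 ng/ml. The lowest cultures of the IL-12 groups (120.4 and 118.6 TPM) were above the highest unstimulated one (111 TPM). A shorter transcript with a retained intron, *Tnfrsf1a-205* (764 bases), was at 18.1 ± 6.41, 17.2 ± 4.73 and 14.6 ± 8.56 TPM, and these transcript values were not tested. *Tnfrsf1a* overlaps *Plekhg6* on the other strand, and whether the estimates used the strand of the reads is not given in the sources used here.

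*Tnfrsf1b* (chr4:144938938-144973477, minus strand) encodes TNFR2. Its unstimulated levels were 107, 98.8, 125, 123 and 121 CPM. With 30 ng/ml they were 84.1, 97.0, 97.6, 95.2 and 89.5 CPM, and with 100 ng/ml 103, 109, 105, 118 and 111 CPM. All 5 cultures with 30 ng/ml lay below every other culture, and the unstimulated and 100 ng/ml cultures overlapped. *Tnfrsf1b* fell by 0.31 on the log2 scale at 30 ng/ml (SE 0.06, FDR = 0.00695), in 24 of 24 alternative fits. At 100 ng/ml the difference was -0.07 (95% interval -0.20 to 0.06, FDR = 0.511). The difference between the concentrations was 0.24 (95% interval 0.10 to 0.37), with an FDR of 0.122 in the main test, 0.0371 in DESeq2 and 0.0343 in the likelihood-ratio test. The fall of *Tnfrsf1b* came in the group with the lowest microglial sum. Per 1000 TPM of microglial markers, *Tnfrsf1b* was at 4.61 ± 0.362, 5.04 ± 0.326 and 4.83 ± 0.399 TPM (unstimulated, 30 and 100 ng/ml), and the 3 groups overlapped.

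The balance of the receptors differed accordingly. The ratio of *Tnfrsf1b* to *Tnfrsf1a*, both in TPM, was 0.348 to 0.422 in unstimulated cultures, 0.256 to 0.297 with 30 ng/ml and 0.300 to 0.395 with 100 ng/ml. The ranges of the unstimulated and 30 ng/ml cultures did not overlap. This ratio is a description and was not tested.

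The proteins that act at the receptor showed few differences. RIPK1 is the kinase and scaffold that decides between survival signaling and cell death. *Ripk1* (chr13:34186141-34221130, plus strand) ranged from 50.4 to 58.2 CPM in unstimulated cultures, 50.2 to 55.4 with 30 ng/ml and 50.1 to 57.7 with 100 ng/ml, with log2 fold changes of -0.06 (95% interval -0.16 to 0.04, FDR = 0.528) and -0.05 (-0.15 to 0.05, FDR = 0.547). It overlaps *Serpinb6a* on the other strand. TRAF2 is the adaptor that brings the cIAPs to the receptor. *Traf2* (chr2:25406097-25436987, minus strand) ranged from 20.2 to 22.6 CPM, 21.5 to 25.6 and 19.7 to 25.6 CPM in the same order, with log2 fold changes of 0.15 at 30 ng/ml (0.02 to 0.29, FDR = 0.16) and 0.12 at 100 ng/ml (-0.02 to 0.25, FDR = 0.278). TRAF1, which has no RING domain and pairs with TRAF2, is induced by NF-κB in many cells. *Traf1* (chr2:34831762-34851837, minus strand) ranged from 68.3 to 81.1 CPM, 73.5 to 93.9 and 65.4 to 82.6 CPM. It differed from unstimulated cultures by 0.13 at 30 ng/ml (log2 scale, -0.02 to 0.28, FDR = 0.297) and by -0.01 at 100 ng/ml (-0.16 to 0.14, FDR = 0.957). None of these 3 genes was called in any of the 3 comparisons, in the main test or in the 24 alternatives.

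The genes of the ubiquitin ligases lie next to each other on chr9, *Birc2* at 7818227-7837120 and *Birc3* at 7845790-7873229, both on the minus strand. *Birc2*, the constitutive one, ranged from 34.3 to 37.6 CPM in unstimulated cultures, 35.1 to 38.1 with 30 ng/ml and 33.4 to 43.9 with 100 ng/ml, and was called in none of the comparisons (log2 0.05 at both concentrations, 95% interval -0.08 to 0.18 for each, FDR = 0.701 and 0.647). *Birc3*, the NF-κB-inducible one, held 8.05, 6.56, 8.25, 8.35 and 7.57 CPM in unstimulated cultures. It held 6.77, 7.89, 8.20, 7.59 and 7.36 CPM with 30 ng/ml and 8.49, 10.3, 9.53, 10.02 and 9.59 CPM with 100 ng/ml. Every culture with 100 ng/ml was above every other culture, replicate 1 only narrowly. *Birc3* rose 1.23-fold at 100 ng/ml (log2 0.30, SE 0.08, FDR = 0.0229), whereas its difference at 30 ng/ml was -0.04 (95% interval -0.21 to 0.13, FDR = 0.831). Between the concentrations the difference was 0.34 (SE 0.08), with an FDR of 0.0635 in the main test, 0.0127 in DESeq2 and 0.0126 in the likelihood-ratio test. It was also called without unstimulated replicate 2 (FDR = 0.0342) or 100 ng/ml replicate 1 (FDR = 0.0491).

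The rise of *Birc3* depended on the unit. On the TPM scale the log2 difference at 100 ng/ml was 0.07 (limma, FDR = 0.773), and among the counts it was lost without unstimulated replicate 2 (FDR = 0.0504), unstimulated replicate 5 (FDR = 0.0543) or 100 ng/ml replicate 4 (FDR = 0.0519). TPM weights a read by the length of the transcript it is assigned to. The main coding transcript *Birc3-201* (2667 bases) was at 4.07 ± 0.394 TPM in unstimulated cultures, 4.20 ± 0.335 with 30 ng/ml and 5.33 ± 0.611 with 100 ng/ml, where the lowest culture (4.46 TPM) was above the highest unstimulated one (4.45 TPM). The short transcript *Birc3-207* (565 bases), annotated as a target of nonsense-mediated decay, was at 1.14 ± 0.734, 0.298 ± 0.594 and 0.601 ± 1.25 TPM, with cultures listed at 0 in every group. Reads shared between transcripts of a gene are divided by estimation, so transcript values are less certain than gene values. The part of the short transcript in the difference between the units was not tested.

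The TNF-induced genes also differed from each other. *Tnfaip2* (chr12:111408858-111421452, plus strand) is induced by TNF in endothelial and myeloid cells. It held 13.9, 13.0, 14.1, 14.7 and 14.1 CPM in unstimulated cultures. With 30 ng/ml it held 16.9, 16.2, 20.7, 17.9 and 14.3 CPM, and with 100 ng/ml 25.5, 26.6, 22.9, 26.5 and 25.3 CPM. The 5 cultures with 100 ng/ml were above all others, and 4 of 5 with 30 ng/ml were above all unstimulated ones, replicate 5 being the exception. *Tnfaip2* rose 1.81-fold at 100 ng/ml (log2 0.86, SE 0.08, FDR = 1.98e-06), the largest change among the 10 genes, and 1.23-fold at 30 ng/ml (log2 0.30, SE 0.08, FDR = 0.0242). The difference between the concentrations was 0.56 (SE 0.07, FDR = 0.00109). The calls at 100 ng/ml and between the concentrations held in 24 of 24 alternatives, and that at 30 ng/ml in 20, being lost on the TPM scale (FDR = 0.0737) and without unstimulated replicate 3 (FDR = 0.0523), 30 ng/ml replicate 3 (FDR = 0.0542) or 30 ng/ml replicate 4 (FDR = 0.0561). Per 1000 TPM of microglial markers, *Tnfaip2* was at 0.916 ± 0.121, 1.46 ± 0.0778 and 2.02 ± 0.173 TPM, with no overlap of either IL-12 group with the unstimulated cultures.

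*Tnfaip3* (chr10:18874201-18891405, minus strand) encodes A20, the ubiquitin-editing enzyme that limits NF-κB signaling and that NF-κB itself induces. Its unstimulated levels were 25.1, 24.1, 27.8, 26.3 and 23.9 CPM. Cultures with 30 ng/ml held 18.4, 20.3, 24.0, 22.8 and 19.1 CPM, and cultures with 100 ng/ml 23.6, 30.1, 25.3, 26.9 and 25.5 CPM. Of the 30 ng/ml cultures 4 lay below all others and replicate 3 just inside the unstimulated range, and the 100 ng/ml cultures spread around the unstimulated ones. *Tnfaip3* fell by 0.28 on the log2 scale at 30 ng/ml (SE 0.08, FDR = 0.0319). This call was lost in 7 of 24 alternatives, namely on the TPM scale (FDR = 0.197) and without unstimulated replicate 1, 3 or 4 or 30 ng/ml replicate 1, 2 or 5 (FDR from 0.0527 to 0.0912). At 100 ng/ml the difference was 0.05 (95% interval -0.11 to 0.21, FDR = 0.752). The difference between the concentrations was 0.33 (SE 0.08), with an FDR of 0.0654 in the main test, 0.00943 in DESeq2, 0.00781 in the likelihood-ratio test and 0.0286 without 30 ng/ml replicate 3. Per 1000 TPM of microglial markers, *Tnfaip3* was at 0.957 ± 0.0578, 1.06 ± 0.0769 and 1.08 ± 0.192 TPM, and the groups overlapped.

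The transcripts of *Tnfaip3* varied more than the gene. *Tnfaip3-201* (4422 bases) was at 7.32, 6.73, 4.52, 5.46 and 5.94 TPM in unstimulated cultures, 1.82, 4.92, 3.17, 5.31 and 5.61 TPM with 30 ng/ml and 5.88, 2.6998, 2.72, 3.51 and 1.87 TPM with 100 ng/ml. *Tnfaip3-202* (4334 bases) was at 1.55, 1.66, 4.77, 3.31 and 2.79 TPM, then 5.02, 2.36, 5.07, 2.54 and 1.13 TPM, then 1.89, 7.96, 5.99, 5.68 and 7.41 TPM. In 4 of 5 cultures with 100 ng/ml *Tnfaip3-202* exceeded *Tnfaip3-201*, as in 2 of 5 with 30 ng/ml and 1 of 5 unstimulated ones. The mean share of *Tnfaip3-201* in the gene was 59.1%, 48.4% and 33.6%. The ranges of the groups overlapped for both transcripts, and these shares, noticed after the values were seen, were not tested.

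**Figure D3:**
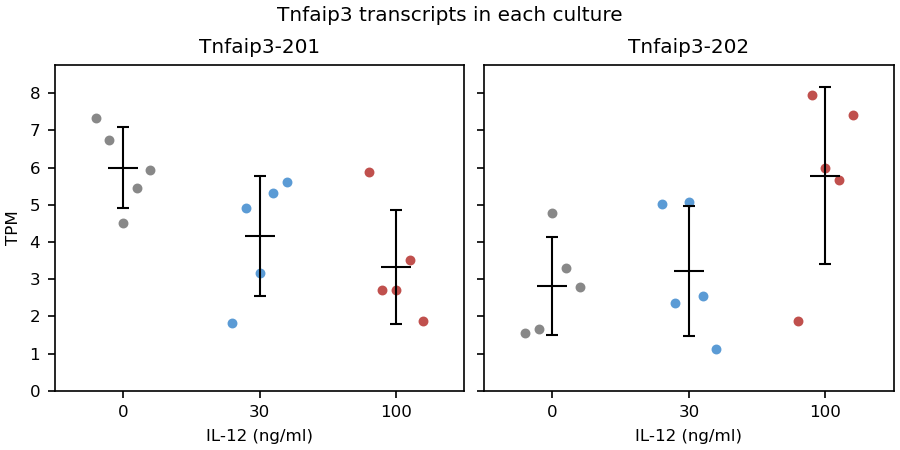
Levels of the transcripts Tnfaip3-201 and Tnfaip3-202 in TPM (y axis, from 0) in each culture, against the IL-12 concentration in ng/ml. Points are cultures, and bars give the mean and SD of 5. With 100 ng/ml, 4 cultures lie low for Tnfaip3-201 (1.87 to 3.51 TPM) and high for Tnfaip3-202 (5.68 to 7.96 TPM), and replicate 1 is the reverse (5.88 and 1.89 TPM).

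**Figure D4:**
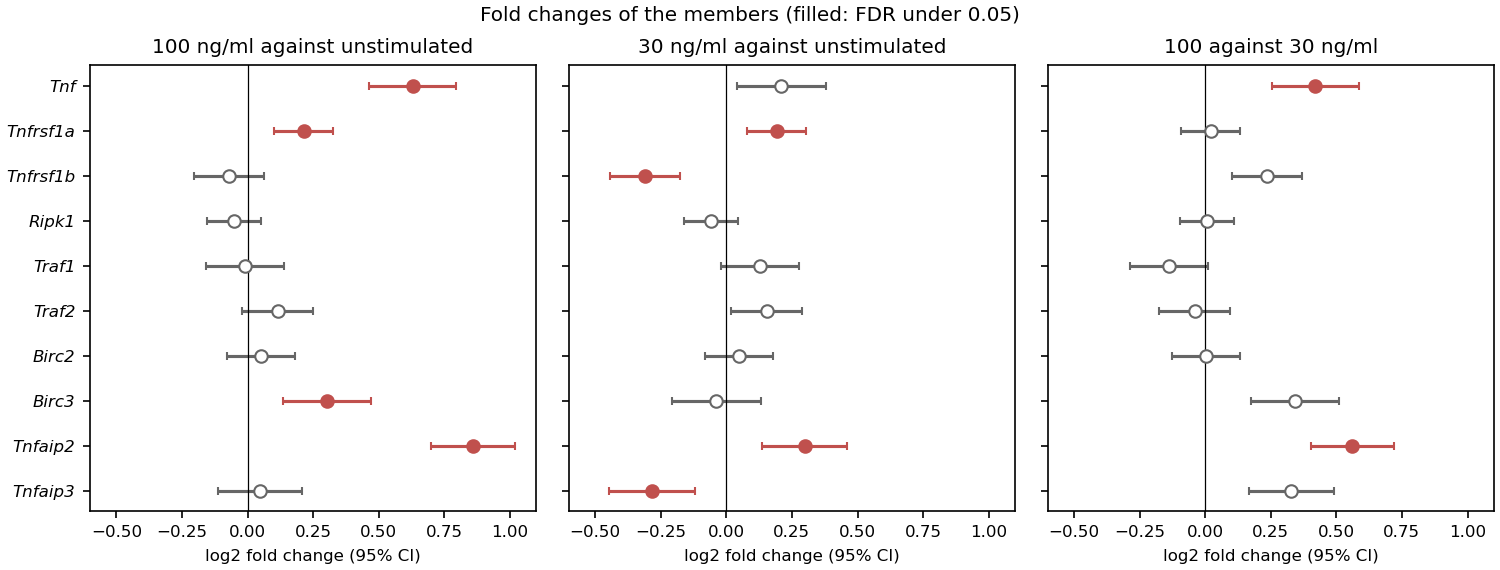
Log2 fold changes of the 10 genes with 95% confidence intervals (x axis) in the 3 comparisons (panels), from edgeR's quasi-likelihood fit. Filled points have an FDR under 0.05. *Tnf* and *Tnfaip2* are filled at 100 ng/ml (0.63 and 0.86) and between the concentrations (0.42 and 0.56), and *Tnfrsf1b* and *Tnfaip3* are filled only at 30 ng/ml (-0.31 and -0.28).

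Genes whose level followed that of *Tnf* most closely were found among 13873 protein-coding genes, by Pearson correlation of log2 CPM over the 15 cultures. They were *Saa3*, an acute phase apolipoprotein (r = 0.95), the copper transporter gene *Slc31a2* (r = 0.94), *Nfkbia*, which encodes the NF-κB inhibitor IκBα (r = 0.94), the ferritin heavy chain gene *Fth1* (r = 0.93) and *Acod1*, which encodes the itaconate-producing enzyme of activated myeloid cells (r = 0.92). Because the groups differ in *Tnf*, part of this likeness is the difference between groups. After subtraction of the group means, r was 0.65, 0.66, 0.59, 0.63 and 0.38. *Saa3* had means of 3.93, 7.45 and 22.4 CPM in unstimulated, 30 and 100 ng/ml cultures, and *Acod1* 3.22, 5.00 and 17.2 CPM. Among the 10 genes, *Tnfaip2* (r = 0.92) and *Birc3* (r = 0.87) were most like *Tnf*, with r of 0.37 and 0.78 within groups. Within groups *Tnfaip3* (r = 0.74), *Tnfrsf1b* (r = 0.71) and *Ripk1* (r = 0.57) were more like *Tnf* than *Tnfaip2* was. The correlations describe cultures that share depth and makeup, and were given no p.

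Beyond the 10 genes, 129 genes of the pathway in 8 lists were examined, of which 106 passed the filter on low counts. At 100 ng/ml 20 of these were higher and 6 lower (median log2 fold change 0.06), at 30 ng/ml 6 were higher and 4 lower (median 0.00), and between the concentrations 6 were higher at 100 ng/ml and 0 lower (median 0.03). The called shares were 24.5%, 9.43% and 5.66%, beside 9.77%, 7.87% and 0.579% of all genes tested, so that at 30 ng/ml the share was near that of all genes. Without unstimulated replicate 2 the count at 30 ng/ml was 16 in place of 10. The count between the concentrations was 2 without 30 ng/ml replicate 5 and 3 without 30 ng/ml replicate 1 or 100 ng/ml replicate 4. Over all genes tested, 1552 in place of 1209 were called at 30 ng/ml without unstimulated replicate 2. Between the concentrations 38 in place of 89 were called without 30 ng/ml replicate 5. Without 30 ng/ml replicate 1 or 100 ng/ml replicate 4, 55 and 53 were called.

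The list with the most calls was that of other TNF- and NF-κB-responsive genes, 11 of whose 21 tested genes rose and 0 fell at 100 ng/ml (median log2 fold change 0.24), beside 5.83% of all genes higher, while 4 rose at 30 ng/ml, beside 4.16% of all genes. *Nfkbia* rose by 0.41 at 100 ng/ml (SE 0.05, FDR = 8.35e-05) and *Nfkbiz*, another inhibitor-like regulator of NF-κB, by 0.51 (SE 0.07, FDR = 0.000251). *Lcn2*, which encodes the iron-siderophore-binding lipocalin 2, rose by 1.05 (SE 0.16, FDR = 0.000451), from a mean of 197 to 407 CPM. The adhesion molecule gene *Vcam1* rose by 0.46 at 100 ng/ml (SE 0.07, FDR = 0.000508) and by 0.40 at 30 ng/ml (SE 0.07, FDR = 0.00201). Besides *Vcam1*, the chemokine genes *Ccl2* and *Cxcl1* and *Nfkbiz* were called at 30 ng/ml, and *Icam1* and *Nfkbia* were higher at 100 than at 30 ng/ml. *Cxcl1* had means of 0.406, 1.01 and 1.08 CPM in unstimulated, 30 and 100 ng/ml cultures. It passed the filter of 1 CPM in 2 cultures through the IL-12 groups, so its calls are not independent of the filter. The list was compiled with earlier results of these data known, so its count is not independent evidence of a direction.

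**Figure D5:**
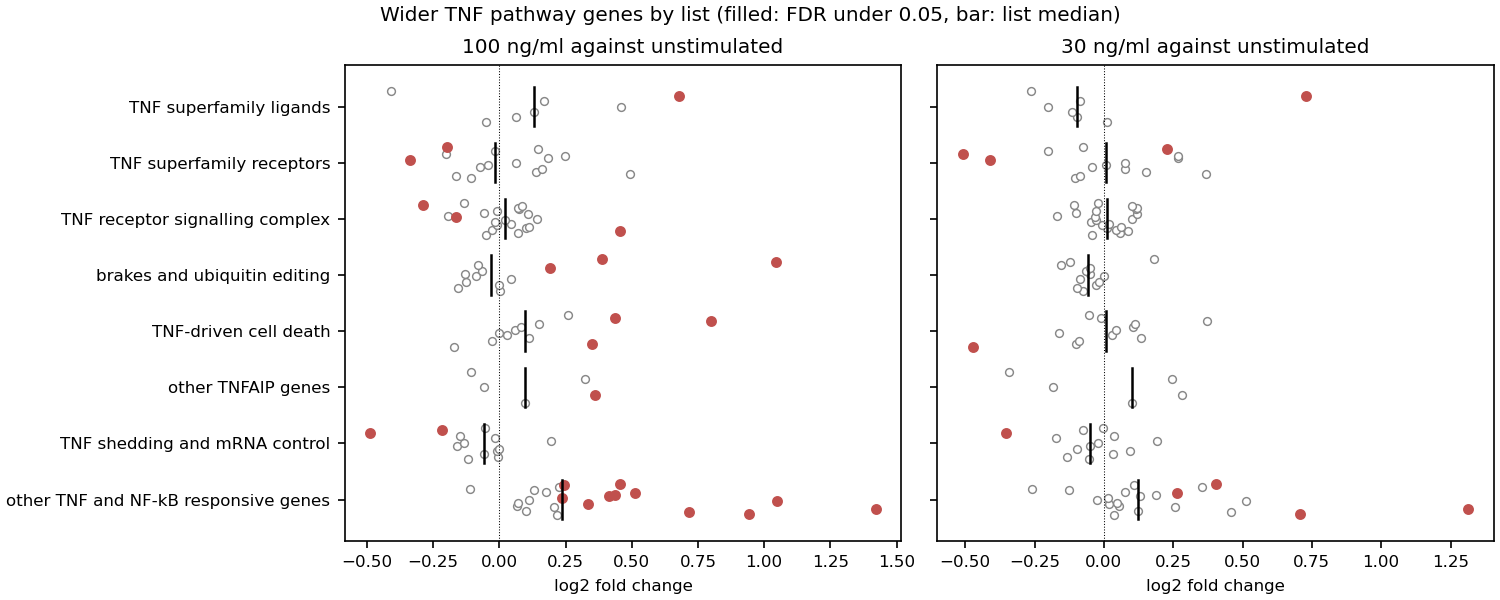
Log2 fold changes (x axis) of the 106 tested genes of 8 wider lists (y axis) at 100 ng/ml and 30 ng/ml IL-12 against unstimulated cultures. Each point is a gene, filled at an FDR under 0.05, and the bar is the median of the list. The NF-κB-responsive list lies to the right at 100 ng/ml, with 11 filled points and a median of 0.24, and the other lists have medians between -0.06 and 0.13 there.

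Control of *Tnf* mRNA and its shedding was covered by 13 genes, of which 2 fell and 0 rose at 100 ng/ml and 1 fell at 30 ng/ml. The called shares of 15.4% and 7.69% were near those of all genes (9.77% and 7.87%). *Zfp36* encodes tristetraprolin, which binds AU-rich elements and speeds the decay of *Tnf* mRNA. It fell by 0.35 at 30 ng/ml (SE 0.07, FDR = 0.00668) and by 0.49 at 100 ng/ml (SE 0.07, FDR = 0.000451) on the log2 scale, with means of 50.5, 39.5 and 36.0 CPM. Its relative *Zfp36l1* fell by 0.22 at 100 ng/ml (SE 0.04, FDR = 0.00333).

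Brakes and ubiquitin-editing factors other than *Tnfaip3* numbered 12, of which 3 (25%) rose at 100 ng/ml, beside 5.83% of all genes, and 0 were called at 30 ng/ml, beside 7.87%. *Zc3h12a*, which encodes the endoribonuclease regnase-1 that degrades inflammatory mRNAs, rose by 0.39 (SE 0.07, FDR = 0.00144). The A20-binding inhibitors *Tnip3* and *Tnip1* rose by 1.05 (SE 0.23, FDR = 0.00794) and 0.19 (SE 0.05, FDR = 0.0232), and both were also higher at 100 than at 30 ng/ml. *Tnip3* was low, with means of 0.617, 0.568 and 1.28 CPM in unstimulated, 30 and 100 ng/ml cultures. It passed the filter of 1 CPM in 2 cultures through the 100 ng/ml group, where it is high. Its calls and its part in the count of 3 are therefore not independent of the filter.

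Of 21 genes of the TNF receptor signaling complex, 1 rose and 2 fell at 100 ng/ml and 0 were called at 30 ng/ml. The called share at 100 ng/ml, 14.3%, was near the 9.77% of all genes. *Ikbke*, which encodes the IKK-related kinase IKKε, rose by 0.46 (SE 0.07, FDR = 0.000451) and was higher at 100 than at 30 ng/ml (0.37, FDR = 0.0137). *Traf6*, the adaptor of Toll-like and IL-1 receptors, fell by 0.29 (SE 0.07, FDR = 0.0136) and *Tab2*, a partner of the kinase TAK1, by 0.16 (SE 0.05, FDR = 0.0365).

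Among 12 genes of TNF-driven cell death, 3 (25%) rose at 100 ng/ml, beside 5.83% of all genes. They were *Mlkl* (log2 0.80, SE 0.15, FDR = 0.00307) and *Ripk3* (0.44, SE 0.11, FDR = 0.0186), the effector and the kinase of necroptosis, and the antiapoptotic *Bcl2a1d* (0.35, SE 0.09, FDR = 0.0169). At 30 ng/ml 1 of the 12 (8.33%) was called, near the 7.87% of all genes. It was *Bcl2a1b*, which fell by 0.47 (SE 0.09, FDR = 0.00494). The *Bcl2a1* genes are near-identical copies, so the division of reads between them is uncertain.

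Other ligands and receptors of the TNF superfamily gave few calls. Of 17 ligands only 7 passed the filter, of which 1 (14.3%) was called at each concentration, beside 9.77% of all genes at 100 and 7.87% at 30 ng/ml. It was *Tnfsf8* (CD30 ligand), higher by 0.73 at 30 ng/ml (SE 0.17, FDR = 0.0148) and 0.68 at 100 ng/ml (SE 0.17, FDR = 0.0187), from a mean of 1.28 CPM. Of 23 receptors 15 were tested, of which 2 (13.3%) were called at 100 ng/ml and 3 (20%) at 30 ng/ml, beside 9.77% and 7.87% of all genes. *Tnfrsf11a*, which encodes RANK, fell at both concentrations (by 0.41, FDR = 0.0169, and 0.34, FDR = 0.0397), *Tnfrsf13b*, which encodes the BAFF receptor TACI, fell by 0.51 at 30 ng/ml (FDR = 0.0118), *Tnfrsf19* rose by 0.23 at 30 ng/ml (FDR = 0.0118) and *Tnfrsf21*, which encodes death receptor 6, fell by 0.20 at 100 ng/ml (FDR = 0.0207). Of 5 tested genes that share the TNFAIP name, 1 (20%) was called at 100 ng/ml and 0 at 30 ng/ml, beside 9.77% and 7.87% of all genes. It was *Tnfaip6*, which encodes the hyaluronan-binding TSG-6 and rose by 0.36 at 100 ng/ml (SE 0.10, FDR = 0.0296).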

How the data were processed

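Libraries of 15 cultures, made with a stranded poly(A) kit, were read from one end over 100 bases. The submitters' processing notes name FastQC 0.10.0, STAR 2.7.8a, featureCounts and GRCm39, and the methods name GENCODE M26 and edgeR. The files used here hold, per transcript, the length, the effective length, the estimated count and the TPM that the authors deposited, and the program that made them is not given in the sources used here. Gene counts, which the plan had assumed, were made by summing the estimated counts by transcript identifier with GENCODE M39 (GRCm39) and rounding. This matched 99.0% of the transcripts, and the others held 0.677% to 0.712% of the reads. Estimated division of reads between transcripts and overlapping genes limits these values.

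Genes that reached 1 CPM in 2 or more cultures were scaled with TMM (factors 0.981 to 1.02) and tested with edgeR 4.0.16 (quasi-likelihood, 1 fit of the 3 groups, R 4.3.3), with Benjamini-Hochberg adjustment over 15360 genes. SE are from the F statistic. The biological coefficient of variation was 8.00%. Alternatives were DESeq2 1.42.0, RLE factors, library size alone, other filters, fits of only the groups compared, edgeR's likelihood-ratio test, limma 3.58.1 on log2(TPM + 0.1), the replicate block and each culture left out. Scripts were tested on simulated data. Summed markers were compared by two-sided exact permutation, adjusted over 21 tests. *Fcrls* of the microglial list had no values. Motifs were searched in RefSeq windows on GRCm38.p6. In the wider lists, called genes were named, at most 4 per list by smallest p, and genes named beyond that, as well as the ratios and transcript values, were chosen after their values were seen. The 10 genes and all lists were chosen with earlier results of these data known.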

Additional observations from a re-analysis of the deposited data

Results flagged for a closer look

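In each group of 5 cultures the highest and the lowest value of each of the 10 genes were compared with the rest, and a culture is given here when its gap to the nearest other culture exceeded 0.71 of the group's range (Dixon's criterion for 5 values). This held in 3 of 30 groups, where chance gives about 1 in 20. *Tnf* was low in unstimulated replicate 2, at 8.57 CPM beside 9.98 to 10.6 CPM in the other unstimulated cultures. *Tnfrsf1a* was low in 100 ng/ml replicate 2, at 147.6 CPM beside 171 to 174 CPM. This culture also weighed on the genes as a whole. Without it 2932 of 15328 genes tested were called at 100 ng/ml, in place of 1500 of 15360. *Ripk1* was high in 30 ng/ml replicate 4, at 55.4 CPM beside 50.2 to 51.6 CPM. The calls on *Tnf* and *Tnfrsf1a* at 100 ng/ml, and the absence of a call on *Ripk1*, were the same without these cultures.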

How the results depend on the processing

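Of 720 fold changes of the 10 genes under the alternatives, 662 kept their direction and their side of the FDR threshold, 29 lost the call, 10 gained one and 19 changed sign. Of 162 counts of calls, 130 stayed within 1.5 times the main count. The number of the 10 genes called at 100 ng/ml (4) was 2 with limma on TPM, at an FDR under 0.01, and under a fold threshold (unadjusted p of at most 0.01 and log2 fold change of at least 0.5), and 3 to 4 with a culture left out. The number at 30 ng/ml (4) was 1, 1 and 0 in the same order, and 1 to 4 with a culture left out. Between the concentrations (2) it was 5 with DESeq2 and with the likelihood-ratio test, 1 with limma on TPM, 1 at an FDR under 0.01, 4 at an FDR under 0.1, 1 under the fold threshold and 1 to 3 with a culture left out. Of the wider lists, 26 genes at 100 ng/ml became 15 at an FDR under 0.01, 8 under the fold threshold and 18 to 39 with a culture left out. At 30 ng/ml 10 became 4 at an FDR under 0.01, 19 at an FDR under 0.1, 5 under the fold threshold and 8 to 16 with a culture left out. Between the concentrations 6 became 11 with DESeq2 and with the likelihood-ratio test, 2 with limma on TPM, 1 at an FDR under 0.01, 3 under the fold threshold and 2 to 8 with a culture left out. Counts over all genes tested shifted too. At 100 ng/ml, 1500 genes became 827 with limma on TPM and 940 to 2932 with a culture left out. At 30 ng/ml, 1209 became 854 and 673 to 1668 in the same order. Between the concentrations, 89 became 247 with DESeq2, 253 with the likelihood-ratio test and 51 with limma on TPM. With a culture left out that count was 38 to 147. All-gene counts at the other thresholds are not given here. The cause of these shifts was not tested. Log2 fold changes that changed sign were all near 0 and uncalled. Those of *Tnfrsf1a* and *Birc2* between the concentrations were -0.046 and -0.071 with limma on TPM, and that of *Birc2* at 100 ng/ml was -0.000905. With library size alone, *Birc2* and *Ripk1* between the concentrations were at -0.0100 and -0.0059. With a culture left out, values ranged from -0.0051 to 0.083 (*Tnfaip3*), -0.059 to 0.031 (*Traf1*) and -0.016 to 0.085 (*Birc2*) at 100 ng/ml, from -0.093 to 0.00066 (*Birc3*) at 30 ng/ml, and from -0.081 to 0.0096 (*Traf2*), -0.064 to 0.037 (*Birc2*) and -0.031 to 0.034 (*Ripk1*) between the concentrations. Of the marker sums, neurons at 100 ng/ml were at -0.030 as summed CPM and -0.055 to 0.029 with a culture left out, and endothelium between the concentrations at 0.0059 and -0.052 to 0.068. The astrocyte sum at 100 ng/ml and the microglial sum between the concentrations ranged from 0.10 to 0.16 and from 0.21 to 0.31.

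Of 15 pairs of same-numbered cultures from different groups, 4 had a correlation over 0.1 after subtraction of the group means (range -0.18 to 0.26). Differently numbered cultures were not compared, so whether the numbers pair the samples cannot be told from these values. With the replicate block, 4, 4 and 2 of the 10 genes and 24, 10 and 4 of the wider genes were called. Of all genes tested, 1169, 1081 and 69 were called with the block, in place of 1500, 1209 and 89. Of 30 calls on the 10 genes 0 changed, and *Birc2* between the concentrations was at -0.0015. At 239 to 534 reads for *Tnf* and 183 to 329 for *Birc3*, smaller changes than those called may not be detectable at this depth.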
